A study of Ovis aries with 8 samples.

Results

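The genes described here make up a small part of the glucocorticoid pathway in the liver of lambs. They are HSD11B1 and SERPINA6, which act on the supply of active hormone, and the 5 target genes FKBP5, TSC22D3, ZBTB16, SGK1 and KLF9. They were taken by symbol from the deposited table, where each of the 7 matched 1 row of 27729. RNA was sequenced from 4 lambs of the group labelled RES and 4 of the group labelled ADL, in poly(A)-selected libraries of liver. Neither name is written out in the labels; the title of the series speaks of lambs with feed restricted during suckling and of a later fattening period. All 8 lambs were labelled with a slaughter weight of 27 kg, and breed, age and sex were not in the labels. Each library is labelled as a lamb of its own, so the spread between libraries is a spread between animals.

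Cortisol circulates mostly bound to corticosteroid-binding globulin, a liver-made serpin encoded by SERPINA6. Inside hepatocytes the enzyme encoded by HSD11B1 turns inactive cortisone into cortisol, using NADPH that H6PD regenerates in the endoplasmic reticulum. Cortisol frees the receptor NR3C1 from a chaperone complex, and the receptor then switches on genes that include FKBP5, whose product dampens the receptor in turn. TSC22D3 encodes the anti-inflammatory protein GILZ, SGK1 a kinase that acts on ion channels and transporters, and KLF9 and ZBTB16 encode zinc-finger transcription factors. In liver the hormone also raises enzymes of gluconeogenesis and amino acid breakdown.

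In the coordinates of the authors' annotation, whose build and counting base are not stated, HSD11B1 (gene 443409) lies on chromosome 12 from 71628009 to 71691281. SERPINA6 (gene 101118224) lies on chromosome 18 from 57758016 to 57783832. Among the targets, FKBP5 (gene 101118565) lies on chromosome 20 from 9643649 to 9764833, and TSC22D3 (gene 101114590) lies on the X chromosome from 120260650 to 120327170. ZBTB16 (gene 101110790) is on chromosome 15 from 24016079 to 24213680 and SGK1 (gene 101107709) on chromosome 8 from 59254689 to 59365437. KLF9 (gene 101104718) has 2 exons on chromosome 2 from 65763659 to 65795004. Values cover the whole annotated gene, so transcript variants of TSC22D3 or SGK1 are not separated.

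The libraries held 14514084 to 16182407 reads assigned to genes. Hepatocyte markers were abundant in every library, and the summed level of 6 of them lay between 122219 and 160034 TPM in RES and between 158195 and 185880 TPM in ADL. All 6 had a negative difference, and their part in the results below was not tested. TPM values add up to 1 fixed total per library, so a smaller share for abundant genes raises the values of others. The median tested gene had a difference of 0.09 log2 units, RES over ADL, as deposited, and of 0.00559 after division by median-of-ratios size factors. Differences below are RES minus ADL in log2(TPM + 1), with limma's standard error, and the value after size factors is given beside those of the 7 genes and of the other genes whose difference is printed with its error. In bulk tissue, fewer cells of a type and less RNA per cell cannot be told apart.

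None of the 7 genes passed the test between RES and ADL. SGK1 came closest, with a mean 1.73 times that of ADL, and for each of the others the 95% interval of the difference included 0. HSD11B1 was the most abundant of the 7, with 319 genes of the table above it by mean TPM. ZBTB16 was the least abundant, at 2.76 to 4.65 TPM. Limma called 0 of the 13437 genes tested (0.0%) at an adjusted p under 0.05, and 1594 genes (11.9%) had an unadjusted p under 0.05. After size factors 1028 genes (7.65%) did, and limma's voom on the recovered reads also called 0 genes. The authors' deposited table has 13 of 5627 genes (0.231%) with an adjusted p under 0.05, none of them among the 7, and 5.18% of its genes with a p under 0.05. All 7 members passed the filter on low values, a mean of 1 TPM or more over the 8 lambs. In none of the 7 did the groups stand apart without overlap, as they did for 7.39% of all genes tested.

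**Figure D1:**
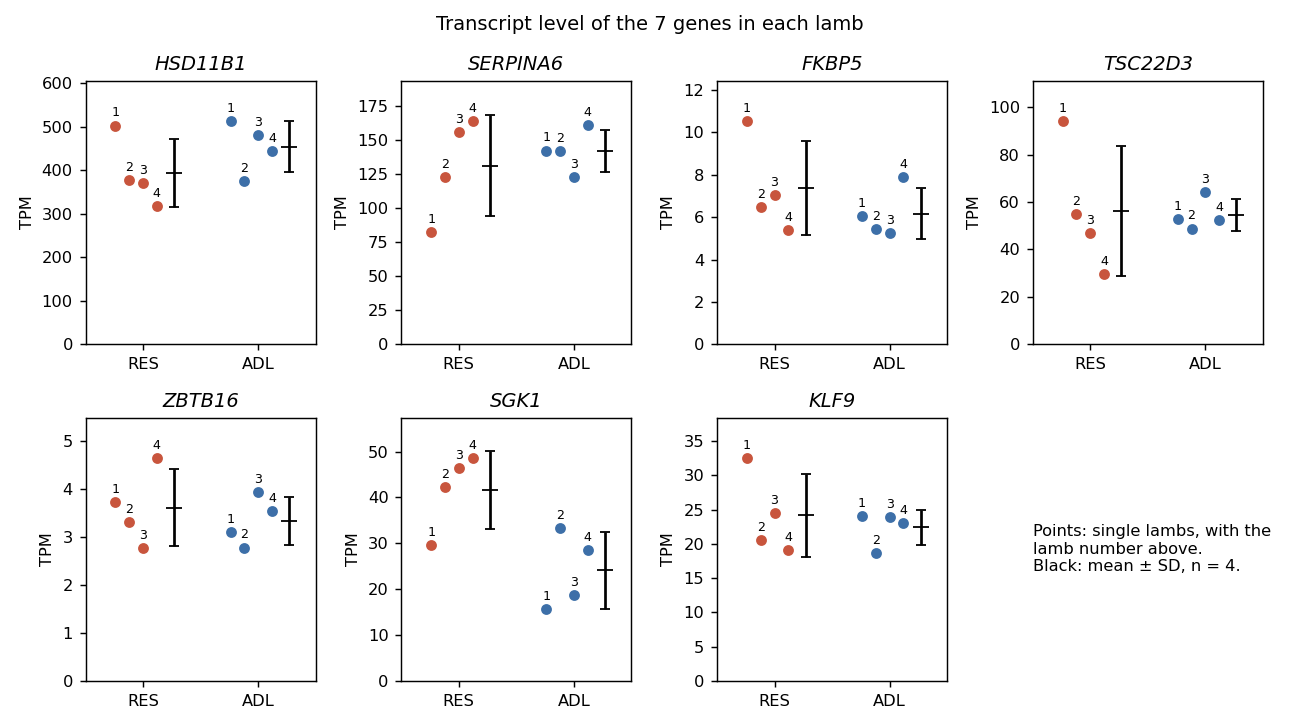
TPM of each of the 7 genes in single lambs, RES left and ADL right, with the lamb number above each point and the mean ± SD (n = 4) in black. The groups overlap in every panel; SGK1 has the clearest offset, and RES lamb 1 has the highest FKBP5, TSC22D3 and KLF9 and the lowest SERPINA6.

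HSD11B1, the activating enzyme, had 502, 378, 371 and 318 TPM in RES lambs 1 to 4, against 512, 375, 480 and 445 TPM in ADL lambs 1 to 4. RES lamb 4 was the lowest of all, while RES lamb 1 was second to ADL lamb 1, so the groups overlapped. The means were 392 ± 77.9 TPM in RES and 453 ± 58.6 TPM in ADL (SD, n = 4 each, here and below). The difference was -0.22 ± 0.15 (SE; 95% interval -0.56 to 0.13; limma adjusted p = 0.555) and -0.32 after size factors. In the authors' deposited table its log2 fold change, shrunken towards 0, is -0.25 ± 0.14 (SE, adjusted p = 0.546). Between 15423 and 26532 reads lay behind each value. Leaving out single lambs moved the difference between -0.34 without RES lamb 1 (limma adjusted p = 0.375) and -0.12 without RES lamb 4 (limma adjusted p = 0.802).

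SERPINA6, the hormone carrier, had 82.3, 123, 156 and 164 TPM in RES lambs 1 to 4, against 142, 142, 123 and 161 TPM in ADL lambs 1 to 4. RES held both the lowest and the highest lamb, and the ADL lambs lay between them. The means were 131 ± 37.2 TPM in RES and 142 ± 15.5 TPM in ADL. The difference was -0.16 ± 0.20 (95% interval -0.62 to 0.30; limma adjusted p = 0.749) and -0.26 after size factors. Without RES lamb 1 it was 0.05, the opposite direction, so the sign of the difference rests on that lamb. The authors' deposited table gives SERPINA6 -0.16 ± 0.15 (SE, adjusted p = 0.773).

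SGK1 had 29.5, 42.2, 46.4 and 48.6 TPM in RES lambs 1 to 4, against 15.6, 33.4, 18.7 and 28.6 TPM in ADL lambs 1 to 4. All 4 RES lambs lay above the ADL mean, but ADL lamb 2 exceeded RES lamb 1, so the groups overlapped. The means were 41.7 ± 8.53 TPM in RES and 24.1 ± 8.32 TPM in ADL. The difference was 0.80 ± 0.25 (95% interval 0.25 to 1.36) and 0.70 after size factors. Its unadjusted p of 0.00952 ranked 289 among the 13437 genes, and after limma's adjustment it was 0.395. Of all genes tested, 10.4% had an unadjusted p under 0.05 on the higher side in RES, and 1.5% on the lower side. In the authors' deposited table SGK1 has 0.47 ± 0.17 (SE, adjusted p = 0.237). Leaving out single lambs moved the difference between 0.63 and 0.98.

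FKBP5, the feedback co-chaperone, had 10.5, 6.46, 7.07 and 5.39 TPM in RES lambs 1 to 4, against 6.05, 5.44, 5.25 and 7.88 TPM in ADL lambs 1 to 4. RES lamb 1 was the highest, followed by ADL lamb 4, and the other lambs lay between 5.25 and 7.07 TPM. The means were 7.36 ± 2.22 TPM in RES and 6.15 ± 1.20 TPM in ADL, a difference of 0.20 ± 0.19 (limma adjusted p = 0.646) and of 0.12 after size factors. Without RES lamb 1 it was 0.04. The values rest on 153 to 303 reads.

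TSC22D3 had 94.1, 54.7, 46.7 and 29.6 TPM in RES lambs 1 to 4, against 53.0, 48.8, 64.2 and 52.2 TPM in ADL lambs 1 to 4. RES again held the highest and the lowest lamb, and its SD of 27.3 TPM stood against 6.70 TPM in ADL. The means were close, at 56.3 TPM in RES and 54.6 TPM in ADL. The difference was -0.07 ± 0.29 (limma adjusted p = 0.935) and -0.17 after size factors, with a 95% interval from -0.72 to 0.59. It was -0.35 without RES lamb 1, 0.19 without RES lamb 4 and 0.0116 without ADL lamb 3. The difference in spread between the groups was not tested.

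KLF9 had 32.6, 20.5, 24.5 and 19.1 TPM in RES lambs 1 to 4, against 24.1, 18.7, 23.9 and 23.0 TPM in ADL lambs 1 to 4. RES lamb 1 stood apart, and the other lambs of both groups lay between 18.7 and 24.5 TPM. The difference was 0.08 ± 0.16 (limma adjusted p = 0.838), but -0.02 after size factors and -0.06 without RES lamb 1. ZBTB16 had 3.73, 3.30, 2.76 and 4.65 TPM in RES lambs 1 to 4, against 3.11, 2.78, 3.93 and 3.53 TPM in ADL lambs 1 to 4. Here RES lamb 4 was the highest and RES lamb 3 the lowest. The difference was 0.08 ± 0.14 (limma adjusted p = 0.827) and -0.00170 after size factors, from only 54 to 86 reads per lamb, and it was -0.02 without RES lamb 4. In the authors' deposited table KLF9 has 0.00414 ± 0.15 (SE, adjusted p = 0.995), TSC22D3 has -0.03 ± 0.17 (SE, adjusted p = 0.969), and FKBP5 (0.11 ± 0.16) and ZBTB16 (0.000233 ± 0.16) have no adjusted p.

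Several of the 7 genes varied together from lamb to lamb. RES lamb 1 had the highest FKBP5, TSC22D3 and KLF9, the highest HSD11B1 but for ADL lamb 1 and the lowest SERPINA6. RES lamb 4 was the reverse, with the lowest HSD11B1 and TSC22D3, the highest SERPINA6 and SGK1, and FKBP5 and KLF9 at rank 7 of 8. ZBTB16 was at rank 3 in RES lamb 1 and highest in RES lamb 4.

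**Figure D2:**
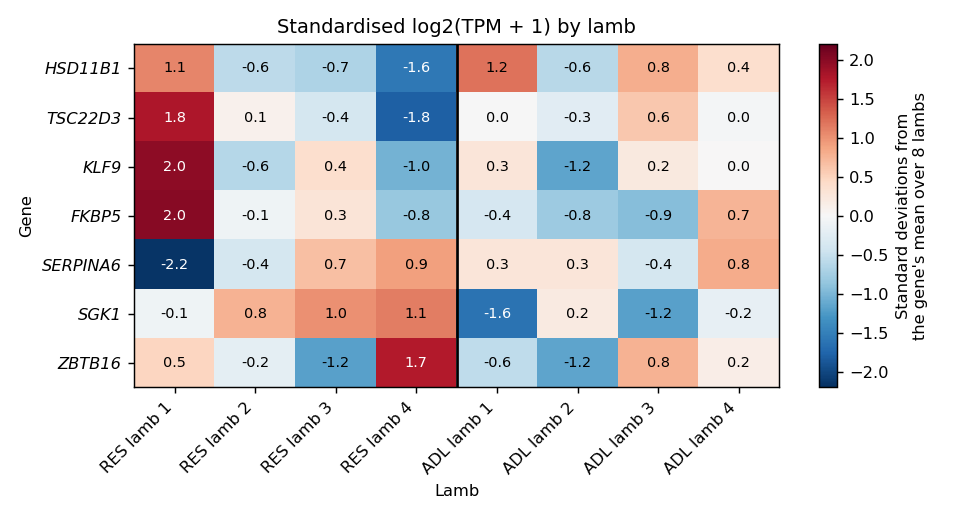
log2(TPM + 1) of each gene in each lamb, given in standard deviations from that gene's mean over the 8 lambs, RES lambs left of the black line and ADL lambs right. RES lamb 1 is at 2.0 for KLF9 and FKBP5 and at -2.2 for SERPINA6, and RES lamb 4 is at -1.8 for TSC22D3 and -1.6 for HSD11B1.

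Pearson's r of log2(TPM + 1) and Spearman's rho were computed over the 8 lambs for the 21 pairs, with exact two-sided permutation p-values over all orders of the lambs, adjusted over the 21. SERPINA6 and TSC22D3 had r = -0.87 (exact permutation p = 0.00206, adjusted p = 0.0432), the 1 pair past the threshold. Their rho was -0.86 (exact permutation p = 0.0107, adjusted p = 0.113). Without RES lambs 1 and 2, the lambs farthest from the SERPINA6 median, r was -0.74 (exact permutation p = 0.111). After size factors the pair had r = -0.71 (exact permutation adjusted p = 0.254), which ends the call. Leaving out 1 lamb at a time gave r between -0.95 and -0.71 and ended the call for every lamb but ADL lamb 4. Among all 13436 other genes tested, 0.476% had an r with SERPINA6 as low as that of TSC22D3 or lower.

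HSD11B1 and SGK1 ran in opposite directions. Their r was -0.87 (exact permutation p = 0.00541, adjusted p = 0.0568) and their rho -0.90 (exact permutation p = 0.00456, adjusted p = 0.0958). Without ADL lamb 1 and RES lamb 4 r was -0.78 (exact permutation p = 0.0556), and after size factors it was -0.91 (exact permutation adjusted p = 0.0292, past the threshold). Without RES lamb 1 alone it was -0.94 (exact permutation adjusted p = 0.0125), also past it. Of all other genes tested, 1.83% had an r with HSD11B1 as low as that of SGK1 or lower.

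HSD11B1 and TSC22D3 ran together, with r = 0.80 (exact permutation p = 0.0102, adjusted p = 0.0715) and rho = 0.81 (exact permutation p = 0.0218, adjusted p = 0.152). Without ADL lamb 1 and RES lamb 4 r was 0.83 (exact permutation p = 0.00972). Left out alone, these lambs moved it in opposite directions, to 0.63 without RES lamb 4 (exact permutation adjusted p = 0.295) and to 0.91 without ADL lamb 1 (exact permutation adjusted p = 0.0375, past the threshold). KLF9 had r = 0.80 with TSC22D3 (exact permutation p = 0.0308, adjusted p = 0.121; rho = 0.48, p = 0.243, adjusted p = 0.638) and r = 0.80 with FKBP5 (exact permutation p = 0.0209, adjusted p = 0.11; rho = 0.55, p = 0.171, adjusted p = 0.590). With HSD11B1 it had r = 0.73 (exact permutation p = 0.0346, adjusted p = 0.121; rho = 0.55, p = 0.171, adjusted p = 0.590). Leaving out the 2 lambs farthest from the median of the partner gave 0.21 with TSC22D3 and 0.44 with FKBP5. For KLF9 with HSD11B1 it gave 0.73 (exact permutation p = 0.0903). Leaving out such lambs also narrows the range of the partner. Without RES lamb 1 alone, KLF9 had a weaker r of 0.54 with TSC22D3 and 0.44 with FKBP5. Without any other single lamb, r lay between 0.80 and 0.86 with TSC22D3 and between 0.77 and 0.91 with FKBP5. The remaining 9 pairs without ZBTB16 had an unadjusted exact permutation p above 0.05, with r between -0.72 and 0.65. Among them, SERPINA6 had r = -0.60 with FKBP5 and -0.72 with KLF9, and 0.55 and -0.27 without RES lambs 1 and 2. FKBP5 had r = 0.65 with TSC22D3 and 0.41 with HSD11B1, as low as 0.17 and 0.12 with 1 lamb left out. Within ADL alone, its r was -0.35 with TSC22D3, 0.09 with HSD11B1, 0.26 with KLF9 and 0.88 with SERPINA6. Within RES alone these were 0.95, 0.99, 0.98 and -0.90.

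The 6 pairs with ZBTB16 had r between -0.16 and 0.04, and for some of them this rested on 1 or 2 lambs. With 1 lamb left out, r of ZBTB16 lay between -0.43 and 0.72 with TSC22D3 and between -0.26 and 0.67 with HSD11B1. RES lamb 4 had the highest ZBTB16 and the lowest TSC22D3 and HSD11B1. Without RES lambs 1 and 4, the farthest from the TSC22D3 median, ZBTB16 and TSC22D3 had r = 0.91 (exact permutation p = 0.00972). Without ADL lamb 1 and RES lamb 4, ZBTB16 and HSD11B1 had r = 0.90 (exact permutation p = 0.0236). With the 2 lambs farthest from the median left out in the same way, ZBTB16 had r = 0.66 with KLF9 and -0.59 with FKBP5, against 0.09 with SERPINA6 and -0.22 with SGK1 (exact permutation p from 0.146 to 0.865). These p-values belong to 6 of 8 lambs and were not adjusted.

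The strongest relations were also present within the groups. With each lamb taken as its deviation from its group mean and lambs permuted within groups, 3 pairs passed the threshold. HSD11B1 and SGK1 had r = -0.88 (exact permutation p = 0.00174, the smallest that the arrangements can give; adjusted p = 0.0365). HSD11B1 and KLF9 had r = 0.93, and SERPINA6 and TSC22D3 had r = -0.93 (exact permutation p = 0.00694 and adjusted p = 0.0486 for each). The deviations after size factors gave -0.87, 0.94 and -0.89 for the 3 pairs in the same order. SGK1 was thus lower, relative to the mean of its group, in lambs with more HSD11B1. For deviations, HSD11B1 with TSC22D3, TSC22D3 with KLF9 and FKBP5 with KLF9 had r = 0.86, 0.83 and 0.80. Their exact permutation adjusted p was 0.0972, 0.138 and 0.138, so they did not pass.

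**Figure D3:**
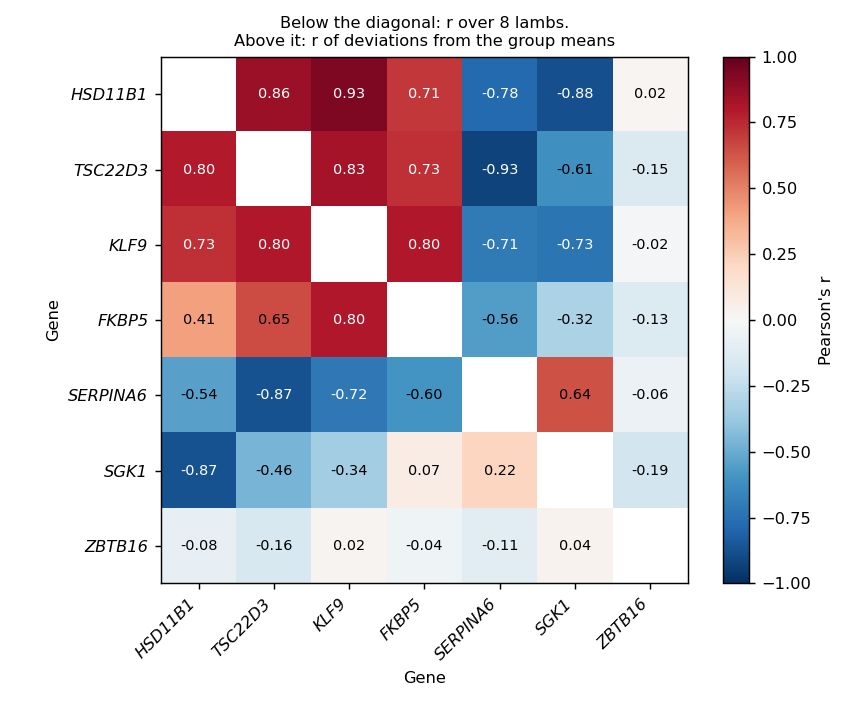
Pearson's r for each pair of the 7 genes, over the 8 lambs below the diagonal and for deviations from the group means above it. HSD11B1, TSC22D3, KLF9 and FKBP5 form a block of positive r between 0.41 and 0.93. The FKBP5 part of it was not shared by both groups. Within ADL alone, FKBP5 had r = -0.35 with TSC22D3, 0.09 with HSD11B1 and 0.26 with KLF9. Within RES alone these were 0.95, 0.99 and 0.98. HSD11B1, TSC22D3 and KLF9 had r between 0.57 and 0.96 with each other within ADL. With 1 lamb left out, r over the lambs fell as low as 0.12 for FKBP5 with HSD11B1 and 0.17 for FKBP5 with TSC22D3. SERPINA6 is negative against all 4, but without RES lambs 1 and 2 its r was 0.55 with FKBP5 and -0.27 with KLF9. Its r with FKBP5 was -0.90 within RES alone and 0.88 within ADL alone. The row of ZBTB16 lies near 0.

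**Figure D4:**
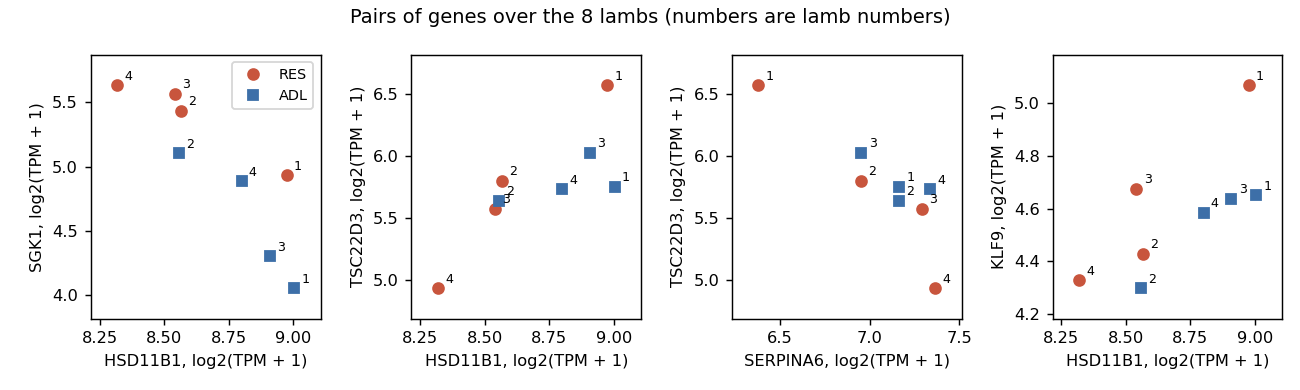
log2(TPM + 1) of 4 pairs of genes in each lamb, RES as red circles and ADL as blue squares, with lamb numbers beside the points. SGK1 is lower where HSD11B1 is higher (r = -0.87), and RES lamb 1 and RES lamb 4 are the ends of the relation of TSC22D3 with SERPINA6.

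NR3C1, the glucocorticoid receptor, had 16.7, 21.6, 23.8 and 24.6 TPM in RES lambs 1 to 4, against 19.4, 20.7, 21.1 and 19.1 TPM in ADL lambs 1 to 4. RES lamb 1 had the least receptor transcript and RES lamb 4 the most, opposite to their TSC22D3. The group means were 21.7 ± 3.57 TPM in RES and 20.1 ± 1.01 TPM in ADL, a difference of 0.09 ± 0.12 (limma adjusted p = 0.753) and of -0.00533 after size factors. Over the 8 lambs, NR3C1 had r = -0.84 with TSC22D3 (exact permutation p = 0.0150; rho = -0.62, p = 0.115) and r = -0.82 with HSD11B1 (exact permutation p = 0.0119; rho = -0.79, p = 0.0279). Adjusted over the 14 relations of NR3C1 and H6PD with the 7 genes, both had an exact permutation p of 0.0797 for r, and 0.322 and 0.195 for rho. Without RES lambs 1 and 4 the r with TSC22D3 was -0.26 (exact permutation p = 0.626) and that with HSD11B1 was -0.67 (exact permutation p = 0.157). NR3C1 had r = 0.69 with SERPINA6, 0.56 with SGK1, 0.07 with ZBTB16, and -0.68 with FKBP5 and with KLF9. The exact permutation adjusted p of these lay between 0.135 and 0.864. Without RES lambs 1 and 4 they were -0.13, 0.67, -0.39, -0.04 and 0.07 in that order.

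H6PD, which supplies NADPH to the HSD11B1 enzyme, had 16.2, 26.8, 18.3 and 25.2 TPM in RES lambs 1 to 4, against 20.1, 43.3, 25.2 and 21.5 TPM in ADL lambs 1 to 4. ADL lamb 2 stood above all others and RES lamb 1 was the lowest. The difference was -0.30 ± 0.25 (limma adjusted p = 0.616) and -0.40 after size factors. H6PD had r = -0.82 with KLF9 (exact permutation p = 0.0171, adjusted p = 0.0797; rho = -0.88, p = 0.00724, adjusted p = 0.101), and -0.71 (exact permutation p = 0.128) without ADL lamb 2 and RES lamb 1. HSD11B2, the enzyme that inactivates cortisol in kidney, was at 0.0697 to 0.327 TPM in every lamb.

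The other genes of the pathway were read from 5 lists. Of all genes tested, 71.0% had a positive difference in the deposited TPM and 51.6% after size factors. In the list of the receptor, its chaperones and its cofactors, 15 of 17 tested genes had a positive difference, and 13 after size factors. Their median was 0.20, against 0.09 over all genes, and 0.10 after size factors. None passed the adjusted threshold (smallest limma adjusted p = 0.395), and 6 had an unadjusted p under 0.05 on the higher side, where 10.4% of all genes did. In 5 of the 17 the groups did not overlap, all higher in RES, against 6.61% of all genes tested that did so on the higher side. The 5 were PTGES3, HSPA8 and the coactivator genes NCOA1, NCOA2 and MED1.

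PTGES3, the p23 co-chaperone, averaged 48.5 ± 6.19 TPM in RES and 36.2 ± 2.55 TPM in ADL (difference 0.41 ± 0.10, limma adjusted p = 0.395, and 0.31 after size factors). HSPA8, a constitutive HSP70, averaged 441 ± 118 TPM in RES and 287 ± 35.1 TPM in ADL, and HSP90AA1 averaged 468 ± 137 TPM in RES and 304 ± 49.5 TPM in ADL. HSP90AB1 averaged 168 ± 25.9 TPM in RES and 129 ± 8.92 TPM in ADL. PTGES3 and HSPA8 did not overlap between the groups, while the HSP90 genes did. None of these 4 chaperone genes passed the threshold.

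**Figure D5:**
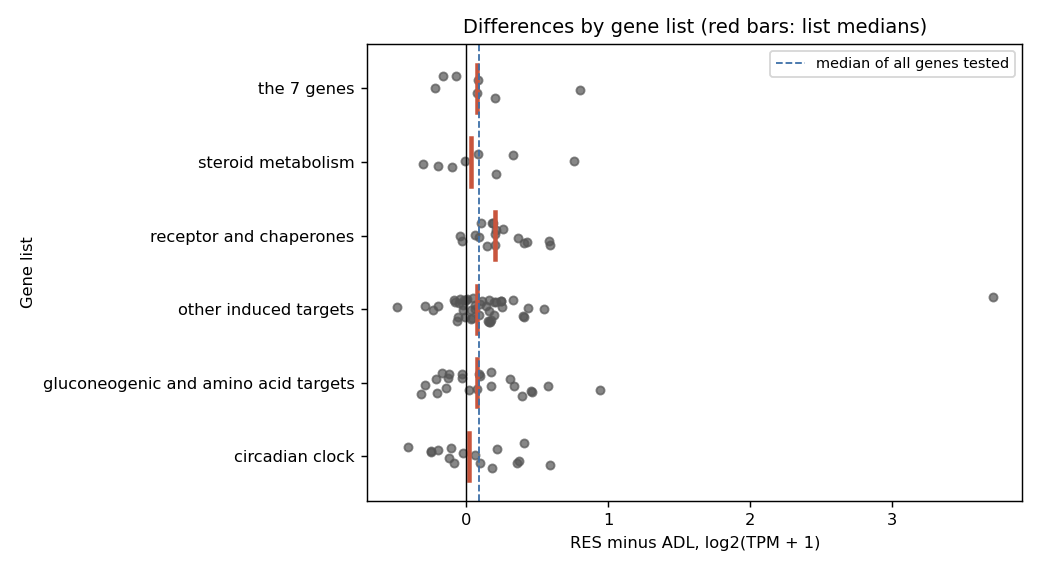
Difference RES minus ADL in log2(TPM + 1) for each tested gene (grey points) of the 7 genes and of 5 lists, with list medians as red bars and the median of all genes tested as a dashed blue line at 0.09. The list of the receptor and its chaperones has a median of 0.20, and the point farthest to the right is ORM1 at 3.71.

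Among 44 tested genes of other glucocorticoid-induced targets, 29 had a positive difference, 22 after size factors, with a median of 0.08 and then -0.00220. None passed (smallest limma adjusted p = 0.408). An unadjusted limma p under 0.05 was found for 3 on the higher side and 0 on the lower, against 10.4% and 1.5% of all genes tested. The groups did not overlap in 0 of the 44, against 7.39% of all genes tested. ORM1, the acute-phase protein orosomucoid, was the widest, with 361, 2006, 133 and 13.5 TPM in RES lambs 1 to 4, against 3.46, 52.3, 4.19 and 38.4 TPM in ADL lambs 1 to 4. RES lamb 4 lay below ADL lambs 2 and 4, so the groups overlapped, and RES lamb 2 was far above the rest. The difference was 3.71 ± 1.43 (limma adjusted p = 0.408) and 3.61 after size factors. CDKN1A, a cell-cycle inhibitor, averaged 11.9 ± 2.44 TPM in RES and 8.58 ± 1.92 TPM in ADL, and TIPARP, an ADP-ribosyltransferase, averaged 12.0 ± 2.34 TPM in RES and 9.28 ± 1.22 TPM in ADL. RGS2, a regulator of G-protein signalling, averaged 3.37 ± 0.865 TPM in RES and 5.34 ± 2.34 TPM in ADL.

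Of 23 tested enzymes and regulators of gluconeogenesis and amino acid breakdown, 13 had a positive difference, 10 after size factors, with medians of 0.08 and -0.02. None passed (smallest limma adjusted p = 0.395). There were 3 at an unadjusted p under 0.05 on the higher side and 1 on the lower, against 10.4% and 1.5% of all genes tested. SDS, which breaks down serine, averaged 25.2 ± 16.3 TPM in RES and 11.3 ± 2.08 TPM in ADL, with RES lamb 1 at 49.4 TPM. PFKFB3, which makes the glycolytic activator fructose 2,6-bisphosphate, averaged 2.49 ± 0.557 TPM in RES and 1.34 ± 0.351 TPM in ADL. ARG1, the urea-cycle arginase, averaged 314 ± 81.3 TPM in RES and 225 ± 49.2 TPM in ADL. AGXT, a peroxisomal transaminase, averaged 49.5 ± 1.42 TPM in RES and 61.1 ± 7.79 TPM in ADL. In 4 of the 23 genes the groups did not overlap, 2 on the higher side (SDS and PFKFB3; 6.61% of all genes tested) and 2 on the lower side (AGXT among them; 0.781%).

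Of 8 tested genes of steroid metabolism, 4 had a positive difference, 3 after size factors, with medians of 0.04 and -0.07. An unadjusted limma p under 0.05 was found for 1 of them, on the higher side, against 10.4% of all genes tested. CYP3A24, a cytochrome P450 of steroid and drug oxidation, averaged 1956 ± 364 TPM in RES and 1150 ± 168 TPM in ADL (limma adjusted p = 0.395). Its groups did not overlap, as for 6.61% of all genes tested on the higher side. The steroid 5-alpha-reductases SRD5A1 and SRD5A2, which start the breakdown of cortisol and other steroids, had differences of 0.21 ± 0.14 and 0.33 ± 0.31, and of 0.12 and 0.23 after size factors. Of 16 tested clock genes, 8 had a positive difference, 7 after size factors, with medians of 0.02 and -0.07. None passed (smallest limma adjusted p = 0.414). Of the clock genes 2 had an unadjusted p under 0.05 on the higher side and 1 on the lower, against 10.4% and 1.5% of all genes tested. In 1 of the 16 the groups did not overlap, on the higher side, against 6.61% of all genes tested. DBP, an output factor of the clock, averaged 47.1 ± 9.52 TPM in RES and 62.4 ± 11.5 TPM in ADL, while NR1D1, a clock repressor, averaged 14.6 ± 2.52 TPM in RES and 11.0 ± 2.16 TPM in ADL. CLOCK averaged 4.17 ± 1.40 TPM in RES and 2.81 ± 0.306 TPM in ADL, and its partner ARNTL 2.12 ± 1.34 TPM in RES and 0.964 ± 0.284 TPM in ADL. The labels give no time of day for the sampling.

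Of the 23 tested genes of gluconeogenesis and amino acid breakdown, 20 had a positive r with TSC22D3, with a median r of 0.58, while 43.2% of all other genes tested had one, with a median of -0.09. Of the 44 other targets 35 did, with a median of 0.42. TAT, tyrosine aminotransferase, had the highest r of the metabolic list with TSC22D3 (r = 0.88, rho = 0.76), and CEBPB, a transcription factor of the acute-phase response, the highest of the other targets (r = 0.92, rho = 0.98). TAT had 626, 451, 355 and 257 TPM in RES lambs 1 to 4, against 344, 507, 544 and 388 TPM in ADL lambs 1 to 4. CEBPB had 47.2, 27.3, 16.2 and 13.5 TPM in RES lambs 1 to 4, against 18.9, 17.5, 33.5 and 22.7 TPM in ADL lambs 1 to 4. Both were highest in RES lamb 1 and lowest in RES lamb 4, as TSC22D3 was. These r values are descriptions over 8 lambs that share libraries and scaling, and were picked as the highest of their lists.

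PER1, a clock gene that the receptor also induces, had the highest r of the clock list with HSD11B1 (r = 0.87, rho = 0.81), TSC22D3 (r = 0.86, rho = 0.62) and KLF9 (r = 0.81, rho = 0.57). It stood at 19.1 TPM in RES lamb 1 and 8.79 TPM in RES lamb 4, with the ADL lambs between 13.0 and 15.1 TPM. SERPINA6 had the opposite sign: 19 of the 23 metabolic targets had a negative r with it, with a median of -0.57 against -0.03 over all genes. The lowest was G6PC, the glucose-6-phosphatase of hepatic glucose output (r = -0.96, rho = -0.95), at 827, 571, 355 and 338 TPM in RES lambs 1 to 4, against 420, 366, 552 and 285 TPM in ADL lambs 1 to 4. SGK1 also had negative medians: its median r was -0.23 with the metabolic list and -0.13 with the other targets, against 0.27 over all genes, and 0.61 with the receptor and chaperone list. Its highest r in that list was with FKBP4 (r = 0.79, rho = 0.81), and for HSD11B1 the same gene had the lowest (r = -0.84, rho = -0.69). These r run over all 8 lambs, so the difference between the groups enters them. SGK1 had a difference of 0.80, and 15 of the 17 tested genes of the receptor list had a positive one. The part of this in the median of 0.61 was not tested.

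Macrophage markers were highest in RES lamb 1. Of the 7 listed, 6 were found, and their summed level was 788, 385, 482 and 394 TPM in RES lambs 1 to 4, against 571, 604, 485 and 642 TPM in ADL lambs 1 to 4. RES lamb 1 was highest for TSC22D3 too, a gene that immune cells also express, while RES lamb 2 had the lowest sum. VSIG4 was under 1 TPM in every lamb. All 5 tested macrophage markers had a negative difference. The summed level of 5 T and NK cell markers lay between 15.7 and 26.8 TPM in RES and between 15.3 and 26.1 TPM in ADL. The part of these cells in the covariation was not tested. The summed level of 4 adrenal cortex markers lay between 3.82 and 4.88 TPM in RES and between 2.24 and 5.45 TPM in ADL, with CYP11B1 at 0 TPM in every lamb.

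The genes with the most similar profile over the 8 lambs were taken from the 8915 tested genes averaging 5 TPM or more, by Pearson's r. For SGK1 they were the kinesin KIF1C (r = 0.99), IMPAD1 (r = 0.98) and the signal transducer SMAD2 (r = 0.97). For FKBP5 they were CBY1 (r = 0.98), the uncharacterised LOC105602128 (r = 0.96) and the mitochondrial translation factor MTIF2 (r = 0.95). For TSC22D3 they included the kinase gene ICK (r = 0.97) and the histone gene H3F3A (r = 0.96). KLF9 was closest to the translation initiation factor genes EIF1 and EIF3M (r = 0.97 for each) and to the dipeptidyl peptidase-like LOC105605899 (r = 0.96). HSD11B1 was closest to LOC101107597 (r = 0.97), a pseudogene of the ribosomal protein L10a, to the pyrophosphatase PPA2 (r = 0.96) and to LOC101116252 (r = 0.96), a pseudogene of the ribosomal protein S3a. SERPINA6 was closest to CMIP (r = 0.96), TIMM10B (r = 0.94) and LOC101108048 (r = 0.93), another pseudogene. ZBTB16 was closest to the coilin gene COIL (r = 0.95), ANXA9 (r = 0.93) and NABP2 (r = 0.93). Each r was picked as the highest among 8915 genes over only 8 lambs, so high values can arise by selection alone, and none was tested. By rho some were lower, at 0.74 for NABP2 with ZBTB16 and 0.81 for H3F3A with TSC22D3. None of the 7 genes was among the 3 closest of another, but ZBTB16, averaging 3.47 TPM, was under the 5 TPM limit and could not be. Reads of a pseudogene can come from its parent gene, so those values are uncertain.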

How the data were processed

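Liver pieces of 8 lambs were stabilised in RNAlater, and poly(A) RNA was sequenced as paired reads on an Illumina HiSeq, per the labels' protocols. Tools in the submitters' processing notes are bcl2fastq 1.8.4 and DESeq2 1.12.4, with aligner, read counter and genome build not given in the sources used here. The authors deposited TPM values made from gene counts and gene length, per the file headers. They also deposited a DESeq2 result: a mean of size-factor scaled counts (a signal), the log2 fold change and its error, a score (the Wald statistic), the p-value and the adjusted p-value, per the file headers. Deposited log2 fold changes run RES over ADL, judged from the TPM means of the genes.

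The read counts quoted were recovered from TPM times gene length, in steps of the lowest nonzero product of a library; 100% of values came out whole (tolerance 1e-06). The 13437 genes averaging 1 TPM or more were fitted as log2(TPM + 1) with limma 3.58.1 (eBayes with trend, R 4.3.3), RES against ADL, and p-values were adjusted over all of them (Benjamini-Hochberg). The fit was tested on simulated data.

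The 7 genes and the 5 lists were chosen with earlier results of these data known. Named genes are the 7, NR3C1, H6PD, the 4 with the smallest p per list, and the 3 tested genes closest to each of the 7; some genes are not reported here; PER1, TAT, CEBPB, G6PC and FKBP4, extremes of r in their lists, and NCOA1, NCOA2, MED1 and HSD11B2 were named after their values were seen. Of 121 list symbols 117 were found. Relations of NR3C1 and H6PD with the 7 genes were added after the data were seen. No sequence was used here. Lamb numbers were not taken as pairs between the groups. Alternatives were other pseudocounts, filters, size factors, quantile normalization, robust eBayes, voom on the recovered reads, a threshold of 0.1, a block for the lamb number and each lamb left out.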

Additional observations from a re-analysis of the deposited data

Results flagged for a closer look

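The 7 glucocorticoid genes and the 21 genes with the smallest p in their lists (with NR3C1 and H6PD) were screened for single lambs that stood apart in their group of 4, by the gap to the nearest lamb over the range of the group. In 56 such groups chance alone flags about 1 in 20. None of the 7 was flagged, and 3 of the 21 were, each in 1 group. SDS had 49.4 TPM in RES lamb 1, far above the other RES lambs. CLOCK had 6.25 TPM in RES lamb 4, far above the other RES lambs. PTGES3 had 40.0 TPM in ADL lamb 2, above the other ADL lambs. The cause of each was not tested.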

How the results depend on the processing

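SGK1, HSD11B1 and FKBP5 kept their direction under every alternative run, and no member passed the threshold under any (smallest adjusted p 0.328, SGK1 with a minimum mean of 5 TPM). SGK1 ranged from 0.63 to 0.98, HSD11B1 from -0.34 to -0.12 and FKBP5 from 0.04 to 0.32. With quantile normalization, size factors and voom, KLF9 turned to -0.0441, -0.0159 and -0.0171 and ZBTB16 to -0.0113, -0.00170 and -0.00785. Leaving out single lambs gave KLF9 -0.0648 (without RES lamb 1) to 0.18, ZBTB16 -0.0233 (without RES lamb 4) to 0.17, TSC22D3 -0.35 to 0.19 and SERPINA6 -0.28 to 0.0477. The number of genes called by limma was 0, and 1 with no filter (LOC101120736) and 0 to 1 with single lambs left out (RGS6 without ADL lamb 1). Pairs of members past the threshold were 1, and 0 by Spearman's rho, 3 for deviations from the group means, and 0 to 1 with single lambs left out. The pair was not always the same: it was HSD11B1 with SGK1 with size factors and without RES lamb 1 (-0.94), and HSD11B1 with TSC22D3 without ADL lamb 1 (0.91). The call of SERPINA6 with TSC22D3 ended with size factors (-0.71), by rho (-0.86), and without RES lamb 1 (-0.71), 2, 3 or 4 or ADL lamb 1, 2 or 3, with 7 lambs left each time. The lamb number as a replicate block left every difference the same by construction and called 0 genes. SGK1 was at 0.80 with a limma p of 0.00187 and an adjusted p of 0.440. Same-numbered lambs correlated between -0.12 and 0.15 in their deviations from the group means. RES lamb 1 correlated best with ADL lamb 1, and RES lambs 2, 3 and 4 did so with another number. These few correlations cannot tell whether same-numbered lambs share more than a number. ZBTB16 had no value with a minimum mean of 5 TPM, where it was not tested. Its values rest on 54 to 86 reads per lamb.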
